A study of Drosophila melanogaster with 3 samples.

Results

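The *odd-skipped* family and a small set of regulators known from pericardial cells were followed in larval hearts that lack Hand. The 7 genes were taken by their CG numbers, not by their values: *odd* (CG3851), *sob* (CG3242), *drm* (CG10016), *bowl* (CG10021), *zfh1* (CG1322), *eve* (CG2328) and *tup* (CG10619). Of these, 6 had a row among the 7498 genes with array values. For *odd* no row was found, so that the founding gene of the family was unmeasured. Hearts came from wandering larvae of the 3rd instar, raised at 22 °C. They were either homozygous for the null allele hand[173] or of the w[1118] strain, used as wild type, and no further allele is named. All larvae were briefly heated in a water bath before dissection. About 100 heart tubes per genotype were pooled together with attached tissue, which the labels give as pericardial cells and longitudinal ventral muscles and the paper as pericardial cells and alary muscles. The amplified RNA of both pools was hybridized to 3 spotted 2-colour arrays, with hand[173] in Alexa Fluor 647 and w[1118] in Alexa Fluor 555 each time. The paper calls the arrays technical replicates, although their titles carry the abbreviation bR. They are therefore treated as repeats of 1 comparison between 2 pools, and the difference between genotypes has no replicate check. Dye and genotype cannot be told apart, since no array had the dyes swapped.

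Odd, Sob, Drm and Bowl are related zinc finger proteins. In the *Drosophila* embryo *odd* is a pair-rule gene, and in leg discs the family acts downstream of Notch where joints form. Drm relieves Bowl from the inhibitor Lines, so that the family members can act in a chain. In the dorsal vessel, Odd marks a subset of pericardial cells, which lie along the heart tube and serve as nephrocytes in the larva, and the hematopoietic lymph gland. Eve, a homeodomain protein, marks another subset. Zfh1, a zinc finger and homeodomain repressor, is a general marker of pericardial cells, and Tup, the LIM homeodomain protein of the Islet type, is required in the embryo for heart and lymph gland formation. Hand itself is made in cardioblasts, pericardial cells and the lymph gland, which is the reason to ask how these regulators stand in its absence.

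The deposited values are log2 ratios of hand[173] over w[1118], and a relative level is 2 to the power of such a value, with 1 for equal signal. The arrays had different centres. Array 1 held 1372 genes with a median of 0.97, array 2 held 2650 with a median of 0.38, and array 3 held 6459 with a median of -0.56. The values of the 7 regulators are therefore given as deposited and after the median of the array had been subtracted, named centred below. Values of other genes are as deposited unless named as centred. The value table gives ratios only, so that neither the abundance of a transcript nor the presence of a cell type could be read from it, and fewer cells of a type cannot be told apart from less RNA per cell. The labelling text of the samples speaks of fat body RNA, whereas the tissue labels and the paper name hearts. Fat body markers had values for 7 of the 8 listed genes, contractile muscle markers for 8 of 12, pericardial nephrocyte markers for 6 of 9 and hemocyte markers for 5 of 8. The lists are short, and the source of the RNA cannot be read from these counts.

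Coverage set what could be said of each regulator. Of 21 possible values, 7 were present, with 1 on array 1, 2 on array 2 and 4 on array 3. Only *eve* was measured on 2 arrays, and none was measured on all 3. The other 5 regulators had 1 value each, for which no spread exists. Such thin coverage was common, as 4981 of the 7498 genes (66.4%) had a value on 1 array and 2517 genes (33.6%) on at least 2.

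**Figure D1:**
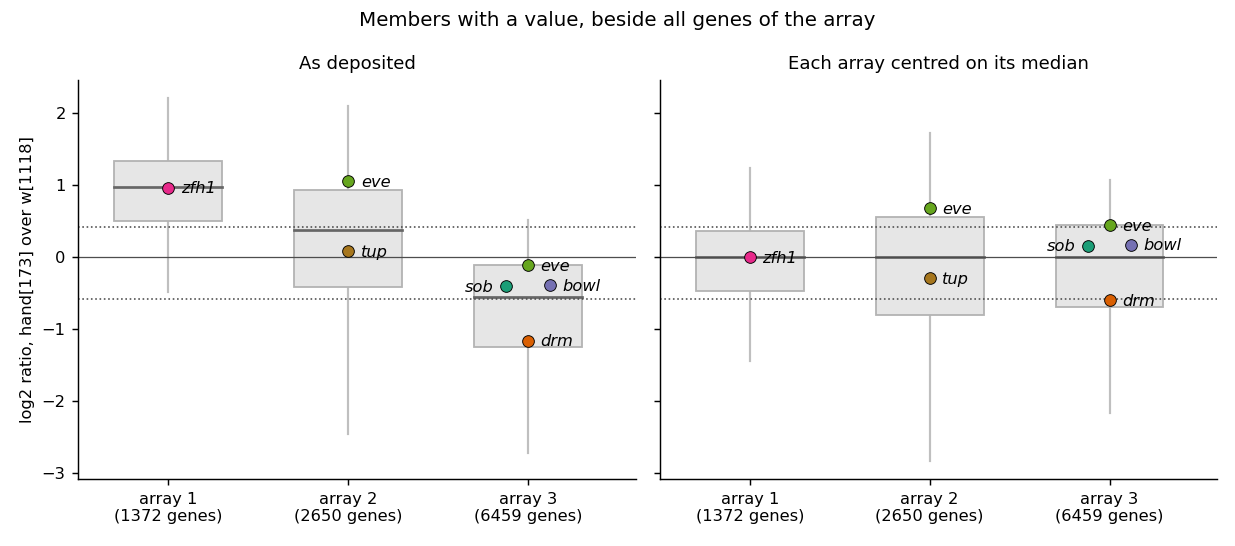
Log2 ratio of hand[173] over w[1118] (y axis) of the 6 measured genes on each array (x axis), as deposited on the left and centred on the right. Points are single values, boxes span the quartiles of all genes of the array with the median as a bar, grey lines reach from the 5th to the 95th percentile, and dotted lines mark the thresholds of 1.33 and 0.67. *zfh1* sits on the median of array 1, *eve* lies above the median on arrays 2 and 3, and *drm* lies below *sob* and *bowl* on array 3.

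Within the *odd-skipped* family, *drm* had the lowest ratio and *sob* and *bowl* were nearly equal, all on array 3. *drm*, which codes for the small family member that binds Lines, had a log2 ratio of -1.16, a relative level of 0.449. Centred, it was -0.60 or a relative level of 0.660, at the 27.5th percentile of the array. Both values lie under the threshold of 0.67 that the methods of the study use for a single array, the centred one closely. With a factor common to the deposited ratios of array 3 removed, the relative level of *drm* was 0.979, which lies over that threshold. The median of the array was then 0.57 on the log2 scale, and *drm* stayed at the 27.5th percentile. As deposited, 49.0% of all genes on array 3 lay under that threshold, and 28.1% did so after centring, so that the position of *drm* was a common one. *sob*, the sister gene of *odd*, had a log2 ratio of -0.40, a relative level of 0.756, and *bowl*, the family member that Lines inhibits, had -0.39 or 0.764. Centred, *sob* was 0.15 and *bowl* 0.17, at the 58.1st and 58.8th percentile. They thus stood under 1 as deposited and slightly over the middle of the array.

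The difference between *bowl* and *sob* was 0.01 on the log2 scale, whereas *drm* was lower than *sob* by a difference of -0.75 and than *bowl* by -0.77. None of these differences has a replicate. Although *drm*, *sob* and *bowl* are not among them, the 1982 genes with values on arrays 2 and 3 give a rough scale of the error. Their centred values on these arrays differed by a median of 0.42, and for 27.3% of the genes they differed by more than *drm* and *sob* did on array 3. The distance of *drm* from its relatives was thus not unusual beside that disagreement, although a distance between 2 genes on 1 array is an unlike measure. For 76 genes within 0.1 of the centred value of *drm* on array 3, a value on array 2 existed as well. On array 2 their centred log2 ratio had a median of -0.32 and quartiles of -0.63 and 0.35, with 21 genes (27.6%) under 0.67 and 16 (21.1%) over 1.33. Over all genes of centred array 2 these shares were 29.1% and 31.3%. Of all 636 genes under 0.67 on centred array 3 with a value on array 2, 80.7% were under it there too, and *drm* lay at the edge of that range. For genes at the level of *sob* (230 genes), 6.96% lay under 0.67 on array 2 and 38.3% over 1.33. For genes at the level of *bowl* (239 genes), the shares were 5.86% and 38.1%.

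*drm*, *sob* and *odd* follow each other on chromosome arm 2L, with *bowl* further along. In the RefSeq annotation 1 protein-coding gene starts between *drm* and *sob*, none between *sob* and *odd*, and 32 between *odd* and *bowl*. None of the genes starting between *drm* and *odd* other than *sob* had a value. Among the 2 nearest annotated genes on either side of each of the 7 regulators, 5 had a value. Next to *drm*, *IFT57* (CG8853), a gene for intraflagellar transport, had a centred log2 ratio of -0.23 on array 3. Next to *bowl*, CG31960 had centred values of -1.40, -0.49 and 0.42 on arrays 1, 2 and 3, and the pseudogene CR31958 (listed as CG31958) had 0.72 on array 3. *wts* (CG12072), the Warts kinase of the Hippo pathway that lies near *zfh1*, had centred values of 0.58 and 0.50 on arrays 2 and 3, and CG10602 near *tup* had -0.44 on array 3. Both genes listed beside *bowl* lay higher on array 3 than *bowl* itself, and *IFT57* lay higher there than *drm*.

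Of the regulators outside the *odd-skipped* family, *eve* had the highest position on its arrays. It had a log2 ratio of 1.05 on array 2, a relative level of 2.07, and of -0.11 on array 3, a relative level of 0.925. The mean was 0.47 ± 0.82 (SD, n = 2 arrays), so that the sign of the deposited values did not hold between the arrays. After centring, *eve* was 0.68 on array 2 and 0.44 on array 3, with a mean of 0.56 ± 0.16 (SD, n = 2 arrays). It then stood above the middle on both, at the 78.1st and the 74.8th percentile. The centred values differed by 0.23, and 70.9% of the 1982 genes differed by more. As deposited the values of *eve* differed by 1.17, so that the unequal centres of the arrays made up most of the spread.

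The remaining regulators showed 1 value each near the middle of an array. *zfh1* had a log2 ratio of 0.96 on array 1, a relative level of 1.95. This is over 1.33, as were 77.6% of all genes on array 1, and the centred value was 0.00, at the 49.6th percentile. *tup* had 0.08 on array 2, a relative level of 1.06. Its centred value was -0.30, or a relative level of 0.814, at the 37.7th percentile. After centring, *zfh1* and *tup* thus both lay between the thresholds. In the RefSeq annotation, *zfh1* and *eve* each overlap 1 antisense RNA (CR45189 and CR43948), and *tup* overlaps the microRNA *mir-4946*. The strand that the spots detect is not given in the sources used here, so that the partners cannot be told apart.

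The scoring of the study requires that 2 arrays or more show a relative level beyond 1.33 or 0.67, and only *eve* could meet it. As deposited, none of the 7 regulators was scored in either direction. Over all 2517 genes with at least 2 values, 20.5% were scored as downregulated and 9.69% as upregulated. *eve* passed the upper threshold on array 2, as 48.3% of the genes there did, and on array 3 it passed neither. With centred arrays *eve* was scored as upregulated, with relative levels of 1.60 and 1.36. The second lies just over 1.33, and 11.8% of the genes were scored so under that setting against 21.9% as downregulated. When instead the mean of the deposited log2 ratios had to pass, *eve* was scored as upregulated too, with a relative level of 1.38. The scoring of *eve* thus depended on the centre of the arrays and on how they were combined.

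When limma treated the arrays as independent, with Benjamini-Hochberg adjustment over all 2517 genes, *eve* did not pass the threshold. Its adjusted p was 0.996 as deposited (mean log2 ratio 0.47, standard error 0.80) and 0.391 on centred arrays (0.56, standard error 0.31). As deposited, this fit placed 5.40% of the genes below 0 and 0.318% above 0 at an adjusted p of 0.05. On centred arrays it placed 5.88% below 0 and 0 genes above 0, while 71 genes above 0 had an unadjusted p under 0.05. The fit covers the spread between arrays of the same pools only, which may be technical. The pairs of values most like those of *eve* among 1981 genes on arrays 2 and 3 belonged to CG6048 and CG7102, with Euclidean distances of 0.03 and 0.04 in centred log2 ratio over these 2 arrays.

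**Figure D2:**
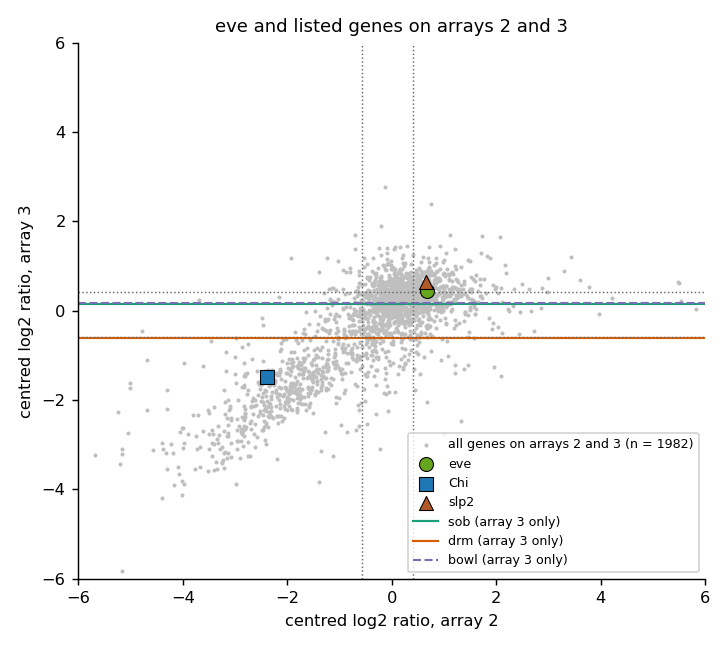
Centred log2 ratio of hand[173] over w[1118] on array 2 (x axis) against array 3 (y axis) for the 1982 genes with both values (grey), of which 2 lie outside the axes. Large symbols are *eve*, *slp2* and *Chi*, horizontal lines give *sob*, *drm* and *bowl*, which have no value on array 2, and dotted lines mark the thresholds of 1.33 and 0.67. *eve* and *slp2* lie in the upper right field and *Chi* in the lower left.

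The regulators were set beside genes of the same network, in 3 lists of partners and corepressors, of cardiac and pericardial lineage regulators, and of the segmentation network. Of 40 listed genes 23 had a value and 7 had at least 2. By the scoring of the study 1 gene was downregulated and 2 were upregulated. Over all 2517 genes with at least 2 values, these shares were 20.5% and 9.69%. With centred arrays 1 listed gene was downregulated and 1 upregulated, beside 21.9% and 11.8% over all these genes. *Chi* and *slp2* were scored in the same direction both ways, but *slp2* passed on arrays 1 and 2 as deposited and on arrays 2 and 3 when centred. No share over so few genes is read against the background of all genes.

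Among the partners, *Chi* (CG3924) was scored as downregulated. It codes for Chip, the cofactor that binds LIM homeodomain proteins such as Tup. Its log2 ratio was -2.01 on array 2 and -2.05 on array 3, or relative levels of 0.249 and 0.242, with a mean of -2.03 ± 0.03 (SD, n = 2 arrays). Centred, it was -2.38 and -1.49. Both arrays thus placed *Chi* under the threshold of 0.67, at the 7.98th and 10.8th percentile. As deposited, 20.5% of all genes with at least 2 values were scored as downregulated. *tup*, its LIM homeodomain partner, was at a relative level of 1.06 on array 2 as deposited and of 0.814 centred. In limma the adjusted p of *Chi* was 0.147 as deposited and 0.0763 on centred arrays. Without array 1, which held no value for *Chi*, it was 0.0106, with a standard error of 0.63 in place of 0.80 and 1982 genes in place of 2517 in the adjustment.

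*lin* (CG11770), named because of its value, codes for Lines, the inhibitor of Bowl that Drm binds. It had 1 value, a log2 ratio of 3.70 on array 1, which is 2.73 after centring, at the 99.5th percentile there. The value of *lin* shares no array with those of *drm* and *bowl* and cannot be set against them. The corepressors each had 1 value on array 3. Centred, *CtBP* (CG7583), which Zfh1 recruits, was 0.62, *gro* (CG8384), the Groucho corepressor used by Eve, was -0.04, and *HDAC1* (CG7471), a histone deacetylase, was 0.07. *Bx* (CG15048), which codes for a LIM-only protein that competes for Chip, had centred values of -0.24 and 0.48 on arrays 2 and 3. Apart from *CtBP* and *Bx* on array 3, these lay between the thresholds.

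In the segmentation network, *slp2* (CG2939), a forkhead gene that acts with *odd* and *eve* in embryonic stripes, had log2 ratios of 0.86, 1.04 and 0.09 on arrays 1, 2 and 3. The mean was 0.66 ± 0.51 (SD, n = 3 arrays). Centred, it was -0.11, 0.66 and 0.64, so that arrays 2 and 3 placed it close to *eve* and array 1 did not. In limma the adjusted p of *slp2* was 0.977 as deposited and 0.453 on centred arrays. Of the 6 genes of this list with a value on array 3, 5 lay above its median. The centred values there reached from -1.65 for *run* (CG1849), a pair-rule gene, to 1.65 for *hb* (CG9786), a gap gene.

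Among the lineage regulators, *hand* (CG18144) had 1 value, a log2 ratio of -0.16 on array 3, which is 0.40 after centring. The part of the gene that the spot covers is not given in the sources used here, so that this value checks no genotype. *lbl* (CG6570), a homeobox gene of heart cell identity, had 1.14, 0.71 and 0.05 on arrays 1, 2 and 3 and was scored as upregulated. As deposited, 9.69% of all genes with at least 2 values were scored so. Centred, *lbl* was 0.17, 0.34 and 0.60, which passed on 1 array only. On array 3 the 9 genes of the list with a value had a median of -0.10 after centring, with 5 below and 4 above the middle of the array. The lowest was *kn* (CG10197), a marker of the lymph gland niche, with -1.56, and the highest *Mef2* (CG1429), the muscle differentiation factor, with 0.78. *sob* and *bowl* lay between these extremes and above the median of the list, and *drm* lay below that median.

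**Figure D3:**
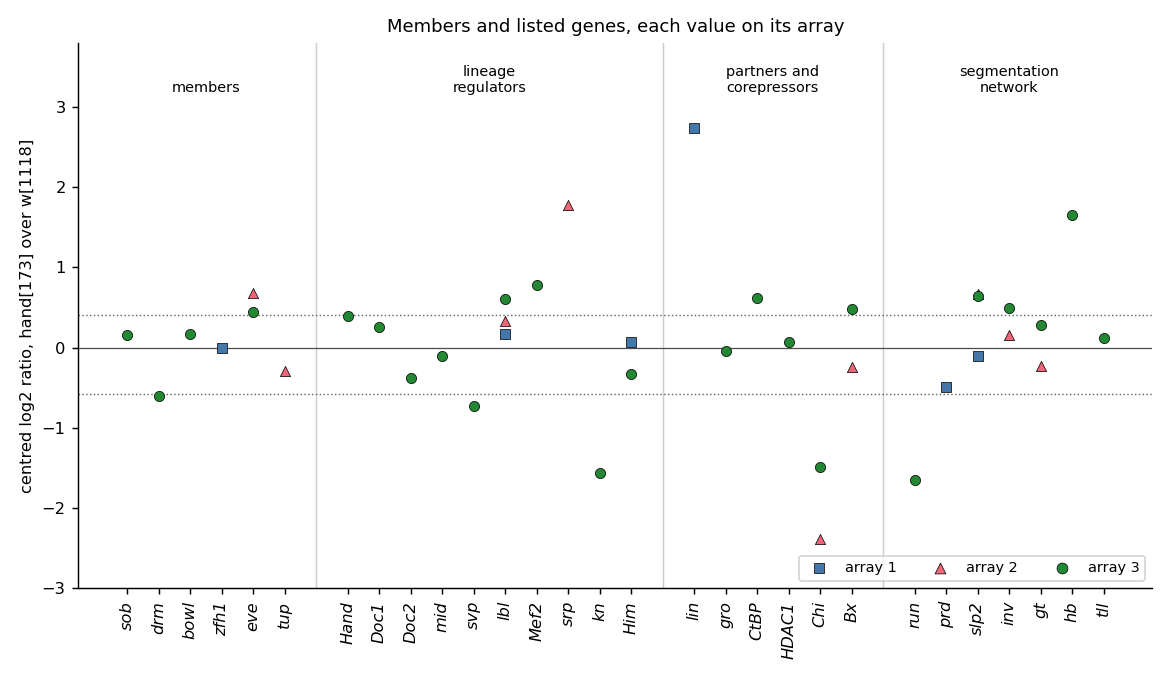
Centred log2 ratio of hand[173] over w[1118] (y axis) of the measured regulators and of the listed genes (x axis), with 1 symbol per gene and array and dotted lines at the thresholds of 1.33 and 0.67. Most genes have 1 value, *Chi* has 2 values of -2.38 and -1.49, and the regulators on the left lie between -0.60 and 0.68.

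Each list of cell type markers held values on both sides of the array median. Of the pericardial nephrocyte markers, 1 had values on at least 2 arrays. This was *mgl* (CG12139), the endocytic receptor Megalin, which had -4.78 on array 2 and -6.39 on array 3. Centred, it was -5.16 and -5.83, and it was scored as downregulated both ways. As deposited, 20.5% of all genes with at least 2 values were scored so. The only other marker of this list on array 2, *sns* (CG33141), a nephrocyte adhesion protein, had 1.44 there, which is 1.06 after centring. On array 3, 5 of the 6 values of this list lay below the median of the array and 1 above it, with a range from -5.83 to 0.80 after centring. Among these, *pyd* was listed under 2 numbers. For contractile muscle 4 values lay below and 3 above, from -1.78 to 1.31. For the fat body 2 values lay below and 3 above, from -3.05 to 1.04, and for hemocytes 2 below and 2 above, from -2.41 to 1.94. Of the fat body markers, *Lsp1alpha* (CG2559), a storage protein, was scored as downregulated with 1.36, -3.30 and -3.61 on arrays 1, 2 and 3, and with centred values of 0.39, -3.68 and -3.05. *Fbp1* (CG17285), the receptor of such proteins, was scored as upregulated with 1.10 on array 1 and 0.91 on array 2, but with centred values of 0.14 and 0.53 it no longer met the rule. The hemocyte marker *Pxn* (CG12002) was scored as downregulated with 0.30, -1.69 and -2.96. Centred, *Pxn* was -0.67, -2.07 and -2.41 and thus under 0.67 on all 3 arrays. Whether the share of any cell type differed between the pools was not tested.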

How the data were processed

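The authors scanned the arrays in GenePix, normalized them in Acuity by a method that the sources used here do not name, and deposited 1 log2 ratio of hand[173] over w[1118] per gene and array. The filter on spots, the reason for empty cells and the genome build are likewise not given there. Spot intensities were not used, so that signal over background is unknown, and precision is limited by having 3 arrays.

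The values were read as deposited and again with the median of each array subtracted. A gene was scored with a relative level over 1.33 or under 0.67 on at least 2 arrays. limma was run on the 2517 genes with at least 2 values, against 0 and with the arrays taken as independent, although 1 pool per genotype was used. Gene symbols follow the RefSeq table of assembly Release 6 plus ISO1 MT, where 7085 of the 7498 numbers were found by current or older number. The genes, lists and tests were chosen with earlier results of these data known. Named genes are the 7 regulators, *hand*, listed genes scored both as deposited and centred, the 2 genes most like *eve*, and annotated neighbours. Other listed genes are named as a partner of a regulator, as an end of a range, or, for *lbl*, *lin*, *sns*, *Fbp1* and *inv*, because of their values. Scoring, limma and the search for array factors were tested on simulated data. Python 3.11.15, pandas 2.3.3, R 4.3.3 and limma 3.58.1 were used.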

Additional observations from a re-analysis of the deposited data

How the results depend on the processing

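No regulator was scored as downregulated under any of the alternatives run, but only *eve* had the 2 values that scoring needs. For the other regulators, *drm* among them, a score in either direction was out of reach for want of values. The number scored as upregulated, 0 as deposited, was 1 in each of 4 alternatives, with *eve* as the gene: centred arrays, centred and scaled arrays, the mean ratio over the arrays, and array factors removed. It was 0 with a threshold of 2-fold, a symmetric threshold and array 1 left out. None of these settings could raise the number for *eve*, so that they do not test it. The 2-fold threshold is stricter, the symmetric one moves only the lower threshold, and *eve* has no value on array 1. The number scored as upregulated was also 0 with all 3 arrays required and with genes with 3 values only. It was 0 without array 2 or 3 too (0 to 0 over the arrays left out). Under these last settings no regulator had enough values to be scored, so that they say nothing about stability in either direction. The deposited ratios appear as 3-decimal numbers times a factor of 0.933, 0.931 and 0.458 on arrays 1, 2 and 3. With that factor removed, the array medians were 1.07, 0.48 and 0.57 and the relative level was 0.979 for *drm*, 1.65 for *sob*, 1.67 for *bowl*, 2.09 for *zfh1*, 1.14 for *tup* and 2.23 and 2.02 for *eve*. Thus 6 of 7 values then lay above 0 on the log2 scale, against 3 as deposited and 4 on centred arrays, with both values of *eve* counted. These counts moved with the array medians and are not read as a result about the regulators. As deposited, 13.0%, 34.4% and 81.0% of all genes on arrays 1, 2 and 3 lay below 0. The direction of *sob* and *bowl* turned on the centre of array 3, and that of *tup* and *zfh1* on the centre of their array. Leaving out array 2 or 3 left *eve* at -0.11 or 1.05. In limma the adjusted p of *eve* ran from 0.391 to 0.996 and was 0.415 on scaled arrays. Of the listed genes, 1 was scored as downregulated (*Chi*), and 0 with all 3 arrays required, with genes with 3 values only, and without array 2 or array 3 (0 to 1 over the arrays left out), settings that *Chi* could not meet with values on arrays 2 and 3 alone. The 2 scored as upregulated became 3 with array factors removed (*inv*, *lbl* and *slp2*), 1 on centred and on scaled arrays, 0 with all 3 arrays required, 0 at 2-fold, and 0 to 2 with an array left out. Each ratio already pairs the genotypes on 1 array, and no further pairing was possible because all arrays carry the same pair of pools.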
